A study of Sus scrofa with 9 samples.

Results

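MYBPH and CHI3L1 are neighbouring genes on pig chromosome 9 whose rows overlap in the deposited expression table. They are 2 of the 21357 genes in that table and were taken by name, each name occurring once. The pair was chosen by its overlapping coordinates, with the FPKM values and fold changes of both genes in these libraries already known, so the levels and fold changes of both genes are given here as a description, without a test. The libraries came from the abdominal aorta of male Tibetan minipigs and fall into 3 groups of 3. The NC group had a normal diet for 24 weeks and is labelled as normal control. The atherosclerosis group had a high-fat diet for 24 weeks, which the paper describes as a diet high in fat with added cholesterol. The H8 group, labelled as hypercholesterolemia, had a high-fat diet for 8 weeks. The paper does not describe the H8 animals. All groups share the breed and the vessel, and the labels name no other treatment. There is no 8-week group on the normal diet, so weeks on the diet and the age of the animals cannot be told apart in comparisons with H8.

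The libraries held between 44094263 and 75787978 counts. Atherosclerosis replicate 3 stood apart from the other libraries of its group, with correlations of log2 CPM across genes of 0.909 and 0.876, beside 0.941 between replicates 1 and 2 and 0.945 to 0.964 within NC and H8. The fold changes of the pair, and the list counts and medians that it moved most, are therefore also given without it.

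CHI3L1, chitinase 3 like 1, encodes a secreted glycoprotein of the chitinase-like family, which binds chitin but does not cleave it. It is made by macrophages, neutrophils, chondrocytes and cultured smooth muscle cells, and is widely measured in blood as a marker of inflammation. MYBPH, myosin binding protein H, is a relative of myosin binding protein C and is known from the thick filaments of striated muscle. Outside striated muscle, it has been described as a partner of ROCK1 and of the heavy chain of non-muscle myosin. Programs that assemble transcripts from short reads divide the reads of an overlapping region among the transcripts that cover it, so the value of each gene depends on the gene models as well as on the reads.

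Both genes are on the minus strand of Sscrofa11.1. In the deposited table MYBPH (ENSSSCG00000030681) runs from 113873490 to 113895024 and has 1 transcript, and CHI3L1 (ENSSSCG00000015476) runs from 113882214 to 113895510 and has 2. The rows share 12811 bp, from 113882214 to 113895024, which is 59.5% of the span of MYBPH and 96.3% of the span of CHI3L1. As transcription runs toward lower coordinates, the 5′ end of the MYBPH row is only 486 bp inside the 5′ end of the CHI3L1 row. The 8724 bp of MYBPH outside the overlap are at its 3′ end. The last 2406 bp of MYBPH also overlap ADORA1, an adenosine receptor gene on the plus strand, which does not reach CHI3L1.

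The RefSeq annotation of the same assembly places the genes differently. There, MYBPH runs from 113872439 to 113884544 and CHI3L1 from 113885541 to 113895033, with no overlap and 996 bp between them. The MYBPH row of the table therefore reaches 10480 bp beyond the RefSeq 5′ end of MYBPH. It covers 9484 bp, or 99.9%, of the RefSeq span of CHI3L1 and ends 9 bp short of the RefSeq 5′ end of CHI3L1. In the other direction, the CHI3L1 row reaches 3327 bp beyond the RefSeq 3′ end of CHI3L1 and covers 2331 bp, or 19.3%, of RefSeq MYBPH. A reach of this size was not common in the table. Among 13753 genes matched to RefSeq by symbol and position, the median row ended 10 bp inside the RefSeq 5′ end (median extension -10 bp), and 560 rows (4.07%) extended at least 10000 bp beyond it.

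**Figure D1:**
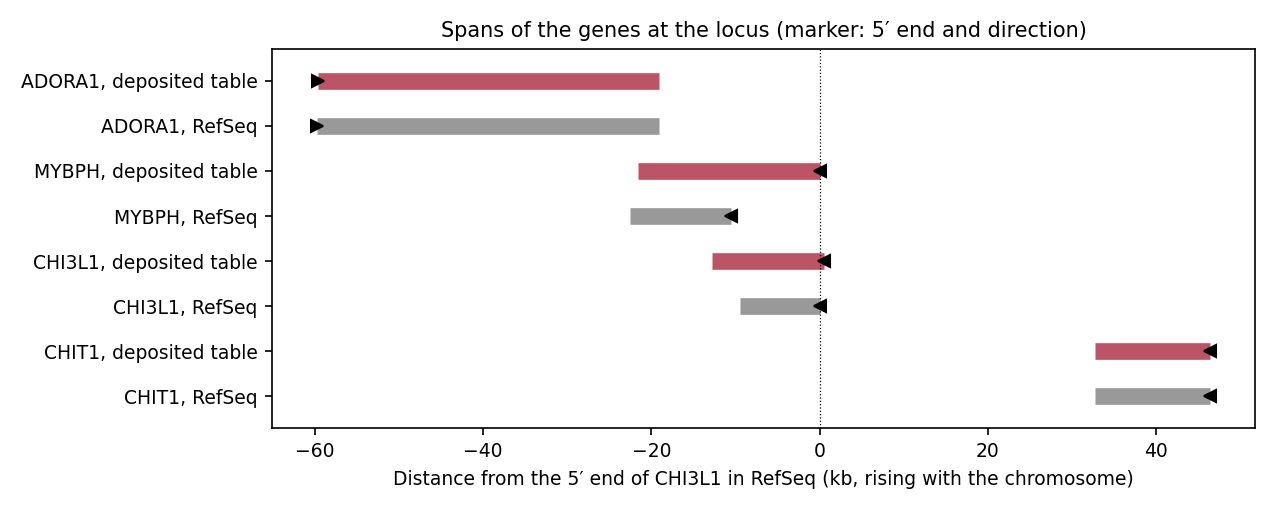
Spans of 4 genes at the locus in the deposited table and in RefSeq, as distance in kb from the RefSeq 5′ end of CHI3L1, with the 5′ end and direction of each gene marked. The MYBPH row of the table starts 9 bp from the dotted line at the RefSeq 5′ end of CHI3L1, while RefSeq MYBPH ends 996 bp before RefSeq CHI3L1 begins.

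The ratio of count to FPKM of a gene gives the transcript length behind its values, once it is scaled on genes without introns. Between 75 and 103 such genes per library, with spans of up to 7148 bp, set this scale and agreed within 0.0980% in every library. The length was 7303 bases for MYBPH (range over the 9 libraries 7296 to 7347) and 5860 bases for CHI3L1 (range 5858 to 5886). These lengths are 33.9% and 44.1% of the spans of the rows. The transcript counted as MYBPH begins inside the CHI3L1 row, so at least its first exon lies there. Its 7303 bases are fewer than the 8724 bp outside the overlap, so length alone does not say how many of its bases are shared with CHI3L1. In the atherosclerosis libraries, where MYBPH had over 1000 counts, its length varied only from 7296 to 7297 bases. At equal FPKM, MYBPH carries 1.25 times as many counts as CHI3L1.

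CHI3L1 had 2.86, 2.55 and 0.987 FPKM in the NC libraries, in the order of their replicate numbers. It was at 5.54, 3.48 and 3.61 FPKM in H8 and at 28.6, 18.4 and 42.0 FPKM in atherosclerosis. These values rest on 403 to 1214 counts in NC, 1478 to 2374 in H8 and 5110 to 16050 in atherosclerosis. The group means rose from 2.13 ± 1.0 FPKM in NC to 4.21 ± 1.15 in H8 and 29.7 ± 11.8 in atherosclerosis (SD, n = 3 each). No library of 1 group overlapped another group, and the order of the levels was NC, H8 and atherosclerosis.

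MYBPH was lower and had another order. The NC libraries had 0.322, 0.680 and 0.232 FPKM in the same order, and the H8 libraries 0.264, 0.252 and 0.256 FPKM. In atherosclerosis they were 3.19, 4.17 and 4.71 FPKM. The counts were 118 to 403 in NC, 134 to 151 in H8 and 1444 to 2243 in atherosclerosis. NC and H8 overlapped, with means of 0.411 ± 0.237 and 0.257 ± 0.00601 FPKM, and all 3 atherosclerosis libraries were above both, with a mean of 4.03 ± 0.773 FPKM (SD, n = 3 each). The highest NC library, replicate 2, was 2.11 times replicate 1 and 2.93 times replicate 3.

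**Figure D2:**
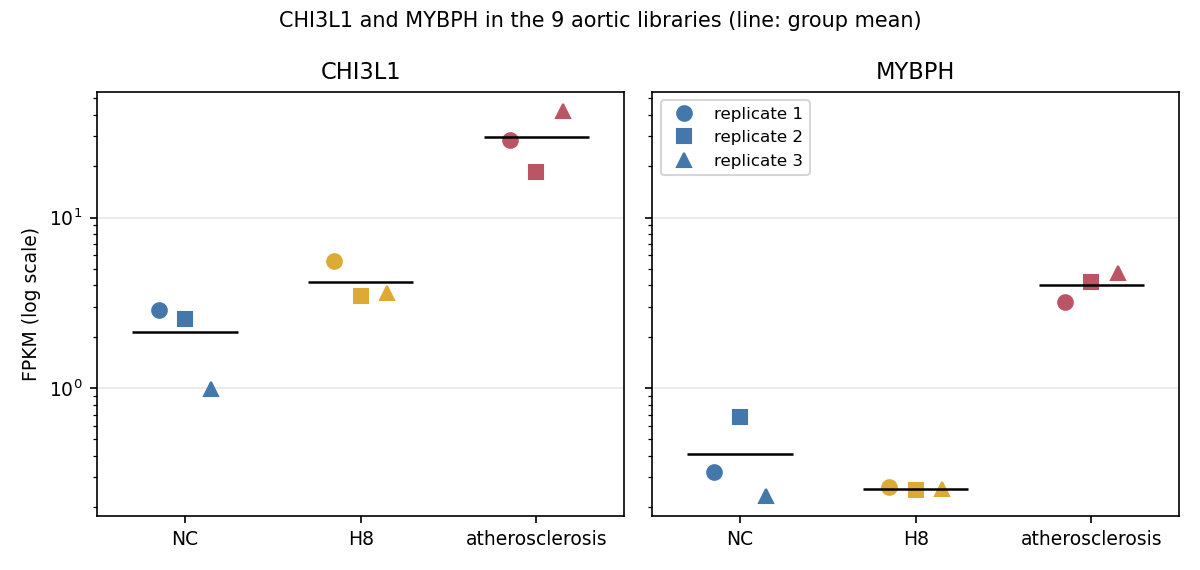
FPKM of CHI3L1 and MYBPH in each of the 9 libraries, on a log axis, with the group mean as a line and replicates 1 to 3 as circle, square and triangle. CHI3L1 separates all 3 groups (means 2.13, 4.21 and 29.7 FPKM), whereas MYBPH in H8 (mean 0.257) lies within the range of NC (0.232 to 0.680).

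In fold terms, the mean FPKM in atherosclerosis was 13.9 times that of NC for CHI3L1 and 9.79 times for MYBPH. Against H8, the order of the genes was turned, with 7.05 times for CHI3L1 and 15.6 times for MYBPH. The edgeR model of the counts gave a log2 fold change for atherosclerosis/NC of 3.77 for CHI3L1 (standard error 0.51) and 3.25 for MYBPH (standard error 0.48). For atherosclerosis/H8 these were 2.63 (standard error 0.36) and 3.78 (standard error 0.29). For H8/NC, CHI3L1 was at 1.11 (standard error 0.40) and MYBPH at -0.55 (standard error 0.47). Without NC replicate 2, the MYBPH value for H8/NC was 0.055, so 1 library set its sign. Without atherosclerosis replicate 3, the values for atherosclerosis/NC were 3.43 for CHI3L1 and 3.12 for MYBPH, and those for atherosclerosis/H8 were 2.30 and 3.67. Comparisons with NC share the NC libraries and those with H8 share the H8 libraries.

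Both genes were higher in atherosclerosis than in NC without overlap, as were 12.8% of the 14828 genes tested, while 7.8% were lower without overlap and 9.95% of those genes were up-regulated by the thresholds of the study (log2 fold change above 1 and unadjusted p under 0.05 in edgeR's quasi-likelihood test). For atherosclerosis/H8, 15.5% of 14788 genes were higher without overlap, as both genes were, and 6.31% were lower. CHI3L1, but not MYBPH, was higher in H8 than in NC without overlap, as were 6.91% of 14336 genes, with 15.9% lower. Because the pair was chosen with these values known, nothing is read from its share against these backgrounds.

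To see whether the MYBPH signal could be a share of the CHI3L1 signal, the FPKM of MYBPH was taken as a percentage of that of CHI3L1 in the same library. A fixed share of the CHI3L1 level counted as MYBPH, with nothing else, would give the same percentage in every library. By replicate number, the NC libraries stood at 11.3%, 26.6% and 23.5%, and the H8 libraries at 4.77%, 7.24% and 7.10%. In atherosclerosis they were 11.2%, 22.7% and 11.2%. All H8 libraries were below all others, and NC and atherosclerosis overlapped. The group means were 20.5 ± 8.12% in NC, 6.37 ± 1.39% in H8 and 15.02 ± 6.65% in atherosclerosis (SD, n = 3 each). On the log2 scale the ratio in H8 was 1.62 below that in NC (difference -1.62), and the ratio in atherosclerosis was 1.18 above that in H8, against SDs of 0.67, 0.34 and 0.59 within NC, H8 and atherosclerosis. Between atherosclerosis and NC the difference was -0.44, which is less than the SD within either group.

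**Figure D3:**
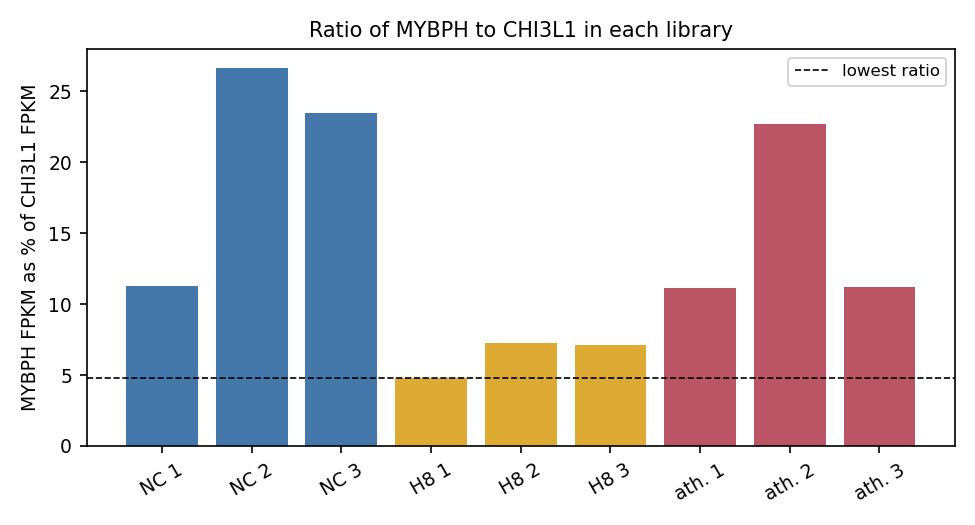
FPKM of MYBPH as a percentage of the FPKM of CHI3L1 in each library, with the lowest value (4.77%, H8 replicate 1) as a dashed line. The 3 H8 libraries lie between 4.77% and 7.24% and the other libraries between 11.2% and 26.6%.

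Suppose that CHI3L1 signal was counted as MYBPH and none the other way. A fixed share could then be no larger, apart from counting error, than the lowest of these percentages, 4.77% in FPKM. This share would assign the whole MYBPH signal of H8 replicate 1 to CHI3L1. It rests on 141 counts of MYBPH and 2374 of CHI3L1 (5.94% in counts), and its 95% interval, from the exact binomial interval of those counts, ran from 3.99% to 5.65% in FPKM and covers counting error only. Taking this share off leaves the NC libraries with 0.186, 0.558 and 0.185 FPKM of MYBPH and the H8 libraries with 0, 0.0860 and 0.0843 FPKM. In atherosclerosis it leaves 1.83, 3.30 and 2.71 FPKM. The mean remainder of 2.61 ± 0.740 FPKM in atherosclerosis did not overlap that of NC, at 0.310 ± 0.215 FPKM (SD, n = 3). The share was set at the lowest percentage, so the remainder of H8 replicate 1 was 0 by construction. The remainder is not a measured MYBPH level, and nothing is read from it, as the MYBPH values were known beforehand. A share of MYBPH counted as CHI3L1 was not tested. Within atherosclerosis, the share removed made up 42.7%, 21.0% and 42.5% of the MYBPH signal. A share that differs between libraries was not tested, because the table gives 1 value per gene and library and no read positions. What part of the MYBPH signal comes from reads within the span of CHI3L1 therefore cannot be told apart from these values.

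The libraries ranked both genes in the same order in H8, but not in NC or atherosclerosis. In atherosclerosis, replicate 2 had the lowest CHI3L1 (18.4 FPKM) and the second MYBPH value (4.17 FPKM), and replicate 3 had the highest of both. In NC, CHI3L1 was highest in replicate 1 and MYBPH in replicate 2, and replicate 3 had the lowest of both. In H8, both genes were highest in replicate 1 and lowest in replicate 2. CHI3L1 ranged there from 3.48 to 5.54 FPKM and MYBPH from 0.252 to 0.264 FPKM.

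As a measure of likeness over the 9 libraries, the log2(FPKM + 0.1) values of each gene were centred on their mean, and the root-mean-square difference between genes was taken. MYBPH and CHI3L1 differed by 0.74 on this log2 scale. This made CHI3L1 rank 24 among 14720 other genes in likeness to MYBPH, and MYBPH rank 88 in likeness to CHI3L1. Of 733 pairs of genes on the same strand of which one covers at least 90% of the other, both at a mean of 0.1 FPKM or more, 285 (38.9%) were more alike than MYBPH and CHI3L1, with a median difference of 0.88. Of all 1114 pairs of genes that overlap on the same strand and are both at a mean of 0.1 FPKM or more, 545 (48.9%) were more alike, with a median difference of 0.75. Of 9920 neighbouring pairs on the same strand without overlap, 53.7% were more alike. Genes that vary little between libraries are close to each other by this measure, whatever their position. The 9 libraries share their grouping by diet, so likeness here largely records the difference between groups.

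The genes nearest to MYBPH were SYTL3, a synaptotagmin-like protein of vesicle traffic (0.46), LTC4S, the leukotriene C4 synthase (0.52), ETV4, an ETS family transcription factor (0.58), GPX3, the secreted glutathione peroxidase (0.58), and ZAP70, a kinase of T cell receptor signaling (0.60). LTC4S had a mean of 3.49 FPKM in NC, 3.37 in H8 and 21.7 in atherosclerosis. GPX3 had 59.6, 25.2 and 243 FPKM in the same order. These 2 genes and ETV4 were on average no higher in H8 than in NC, as MYBPH was, whereas SYTL3 (0.123 FPKM in NC, 0.209 in H8) and ZAP70 (0.0515 and 0.0660 FPKM) were higher. The genes nearest to CHI3L1 were NT5E, the ecto-5'-nucleotidase (0.46), ABCA1, the cholesterol efflux transporter (0.50), S100A4, a calcium-binding protein (0.52), VDR, the vitamin D receptor (0.52), and SLC2A6, a sugar transporter (0.53). ABCA1 had means of 0.488, 1.34 and 8.40 FPKM in NC, H8 and atherosclerosis, and S100A4 had 4.02, 5.05 and 79.2 FPKM. All 5 were on average higher in H8 than in NC, as CHI3L1 was.

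Of the 9 other genes within 250 kb, 6 passed the filter on low values and were tested. None of them was called in any of the 3 comparisons (edgeR's quasi-likelihood test), and their log2 fold changes for atherosclerosis/NC ran from -1.22 for MYOC to 0.46 for PRRC2C, with unadjusted p-values of 0.118 or more in that comparison. ADORA1, which overlaps the 3′ end of MYBPH on the other strand, had 0.134 to 0.476 FPKM over the 9 libraries. For atherosclerosis/NC edgeR gave it a log2 fold change of -0.16 and a standard error of 0.56 (adjusted p = 0.926). The labels do not say whether the library kit kept the strand, so reads of ADORA1 and MYBPH in their shared 2406 bp cannot be told apart. MYOG, the myogenin gene of skeletal muscle, was at 0 in 7 libraries and reached 0.0232 FPKM. CHIT1, the chitotriosidase gene of macrophages, lies next to CHI3L1 from 113927720 to 113941433. It had no counts in NC, H8 and atherosclerosis replicate 2, which allows up to 3 counts per library, and 8 and 14 counts in atherosclerosis replicates 1 and 3.

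**Figure D4:**
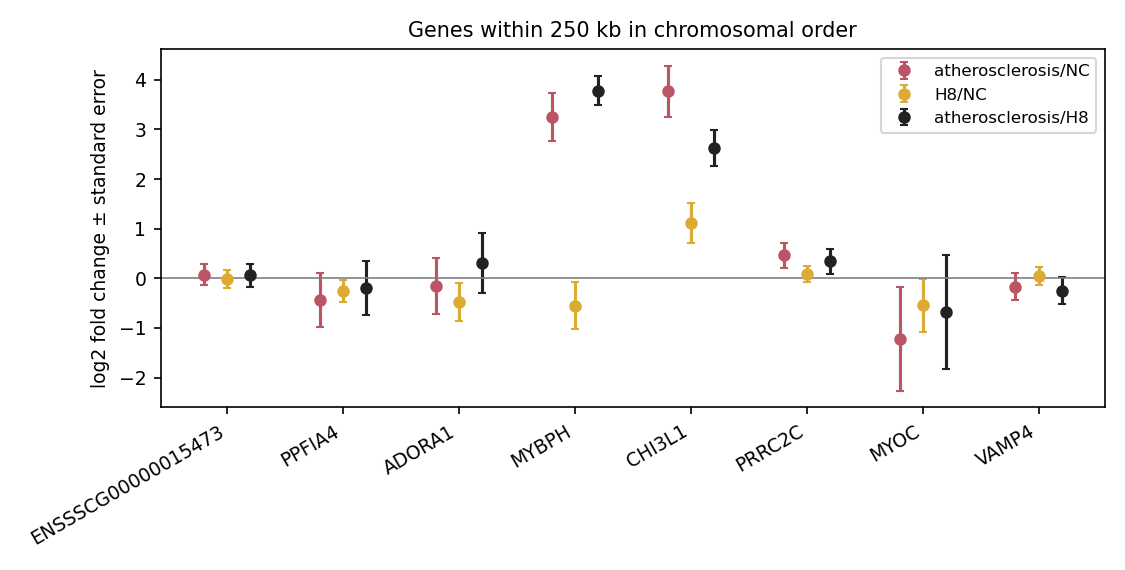
Log2 fold changes with standard errors (edgeR) of the genes within 250 kb of the pair, in chromosomal order, for the 3 comparisons. MYBPH (3.25 and 3.78) and CHI3L1 (3.77 and 2.63) stand at positive values for atherosclerosis/NC and atherosclerosis/H8. MYOC, at -1.22, has the lowest value for atherosclerosis/NC. It had 0.0578 FPKM in atherosclerosis replicate 3, against 3.05 and 2.28 FPKM in replicates 1 and 2.

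Among the other members of the chitinase family, 1 of the 4 tested genes rose in atherosclerosis/NC and none fell, beside 9.95% and 1.52% of all tested genes. This was CHI3L2, a chitinase-like gene on another chromosome, at 0.0180 to 0.147 FPKM in NC and 0.210 to 7.46 FPKM in atherosclerosis. The edgeR fit put it 5.07 higher on the log2 scale (standard error 1.51), with an adjusted p = 0.221, and 2.27 higher without atherosclerosis replicate 3. CHI3L2 is a paralog of CHI3L1, and whether reads were shared between them was not tested. The most highly expressed member was CHID1, a chitinase domain protein, at a mean of 11.7 FPKM (SD 1.67) in NC against 19.4 FPKM (SD 6.49) in atherosclerosis, a log2 fold change of 0.71. In H8/NC, 0 of 3 tested members was called at an unadjusted p under 0.05 with a log2 fold change beyond 1 (edgeR).

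The mRNA levels of proteins described as binding CHI3L1 changed in part. In atherosclerosis/NC, 3 of 6 tested genes rose and none fell, against 9.95% of all tested genes that rose. LGALS3, which encodes galectin 3, had 10.3 ± 1.64 FPKM in NC, 49.2 ± 30.4 in H8 and 559 ± 776 in atherosclerosis. Its log2 fold change was 5.75 for atherosclerosis/NC (adjusted p = 0.132) and 2.37 for H8/NC (adjusted p = 0.143) in edgeR. In atherosclerosis replicates 1 and 2 LGALS3 had 143 and 79.0 FPKM, and without replicate 3 its log2 fold change for atherosclerosis/NC was 3.399 (adjusted p = 0.00460 in edgeR). ITGB3, an integrin chain, and PTGDR2, a prostaglandin D2 receptor, also rose, with log2 fold changes of 2.73 and 4.99 (1.33 and 4.59 without that library). Their adjusted p-values with all libraries were 0.182 and 0.258 in edgeR. PTGDR2 rose from a very low level, 0 to 0.0456 FPKM in NC, to between 0.0944 and 0.788 FPKM in atherosclerosis. CD44, the hyaluronan receptor, rose in H8/NC (log2 fold change 1.19, adjusted p = 0.206 in edgeR). For atherosclerosis/NC CD44 was at 0.47, and at -0.39 without atherosclerosis replicate 3, so 1 library set its sign. It had 15.5 and 21.1 FPKM in atherosclerosis replicates 1 and 2, and at most 62.4 FPKM in that group. The receptor chain IL13RA2 was below the filter on low values.

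Of the cytokines and factors known to act upstream of CHI3L1, 2 of 6 tested genes rose in atherosclerosis/NC, beside 9.95% of all tested genes. OSM, the cytokine oncostatin M, rose from 1.68 ± 0.689 to 7.00 ± 1.46 FPKM (log2 fold change 2.05, adjusted p = 0.132 in edgeR). TNF rose by 2.49 on the log2 scale from a low level, 0.0470 ± 0.0109 FPKM. Both rose in H8/NC, where 5.11% of all tested genes rose, by 1.87 for OSM and 1.88 for TNF. IL6, STAT3, NFKB1 and RELA did not pass, with log2 fold changes of 0.47, -0.20, 0.55 and 0.06 for atherosclerosis/NC. In atherosclerosis/H8, 0 of the 6 passed at an unadjusted p under 0.05 with a log2 fold change beyond 1 (edgeR).

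In the family of MYBPH, 1 of 2 tested genes rose in atherosclerosis/NC, beside 9.95% of all tested genes. MYBPC2, the fast skeletal form of myosin binding protein C, had 0.367 to 1.45 FPKM in NC, 0.294 to 0.658 in H8 and 2.01 to 3.33 in atherosclerosis. Its log2 fold change was 1.59 for atherosclerosis/NC (adjusted p = 0.260) and 2.36 for atherosclerosis/H8 (adjusted p = 0.309) in edgeR. For H8/NC it was -0.79 (adjusted p = 0.535 in edgeR). MYBPC3, the cardiac form, had 0.429 ± 0.684 FPKM in atherosclerosis and did not pass. MYBPC1 and MYBPHL were below the filter. Of the non-muscle myosin and ROCK genes, 4 were tested and none was called in any comparison. MYH9, the non-muscle myosin heavy chain, averaged 399 FPKM (SD 53.5) in NC and 332 FPKM (SD 80.7) in atherosclerosis, and ROCK1 averaged 8.01 and 7.25 FPKM (SD 0.885 and 1.46).

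Markers of striated muscle moved in both directions. Of 30 markers, 24 were in the table and 11 were tested for atherosclerosis/NC. Of these, 1 rose (TNNI2, log2 fold change 3.86) and 1 fell (TCAP, -1.48), beside 9.95% and 1.52% of all tested genes. The median log2 fold change was 0.19 over the 11 beside 0.01 over all tested genes. The adjusted p-values of TNNI2 and TCAP were 0.190 and 0.229 in edgeR. TNNI2 rose from a very low level, 0.0181 to 0.0359 FPKM in NC, to between 0.0519 and 0.649 FPKM in atherosclerosis. MYL1, MYL2, TNNT2 and MYOD1 had no counts in any library. The summed level of the list was 225 to 330 FPKM in NC, 229 to 404 in H8 and 19.6 to 198 in atherosclerosis, and TNNC1, a troponin of slow and cardiac muscle, held most of it (252 ± 52.2 FPKM in NC).

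Macrophage markers moved in the direction of CHI3L1. In atherosclerosis/NC 18 of 18 markers rose, with a median log2 fold change of 5.19, beside 9.95% of all genes tested. In H8/NC 13 of 16 tested markers rose, with a median of 2.24, beside 5.11% of all genes tested. CD68, a lysosomal protein of macrophages, had 4.90 ± 1.16 FPKM in NC, 22.8 ± 17.1 in H8 and 240 ± 326 in atherosclerosis. The summed level of the list was 50.1 to 73.4 FPKM in NC, 85.7 to 476 in H8 and 444 to 7139 in atherosclerosis. Without atherosclerosis replicate 3, 17 of 17 tested markers rose in atherosclerosis/NC, with a median of 3.29, beside 946 of all 14578 genes tested. In atherosclerosis/H8, 16 of 18 markers rose with that library, beside 7.22% of all genes tested. Without it, 2 of 17 rose there, beside 547 of all 14589 genes tested. CD68 had 65.3 and 38.7 FPKM in atherosclerosis replicates 1 and 2. H8 replicate 1 had the highest sum and the highest CHI3L1 of its group, and H8 replicate 2 the lowest of both. In NC the orders differed, as the sum was lowest in replicate 2 and CHI3L1 in replicate 3. In atherosclerosis, replicate 3 had 8.54 times the macrophage sum of replicate 1, and 1.47 times its CHI3L1 and 1.48 times its MYBPH. The part of these markers in the levels of the pair was not tested. In such bulk samples, more cells of a type and more RNA per cell cannot be told apart.

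Other marker lists gave the following values. Of the neutrophil markers, 3 of 6 tested rose in atherosclerosis/NC, beside 9.95% of all tested genes. Without atherosclerosis replicate 3, 1 of 4 rose, beside 946 of all 14578 genes tested. CSF3R, the receptor of granulocyte colony-stimulating factor, rose in both fits. It also rose in H8/NC (log2 fold change 3.84, adjusted p = 0.0206 in edgeR). ELANE, the neutrophil elastase gene, fell in H8/NC (log2 fold change -2.21, adjusted p = 0.209 in edgeR). Of the chondrocyte markers, none of the 5 tested was called in atherosclerosis/NC (ACAN, the aggrecan gene, rose without atherosclerosis replicate 3, by 1.92 on the log2 scale), and COL10A1 had no counts in any library. Smooth muscle markers summed to 11960 to 14007 FPKM in NC, 10249 to 13737 in H8 and 8216, 12082 and 1755 in atherosclerosis replicates 1 to 3. They are the defining cells of the vessel wall and were present in all libraries, least in atherosclerosis replicate 3. None of the 8 smooth muscle markers was called in atherosclerosis/NC, nor was any of the 5 endothelial markers. Among all tested genes, 9.95% rose and 1.52% fell there. The median log2 fold change of the smooth muscle markers was -0.74, and -0.27 without atherosclerosis replicate 3.

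Adipocyte markers were lower in H8. All 4 tested markers fell in H8/NC, as did 2.27% of all genes tested, and ADIPOQ, the adiponectin gene, had a log2 fold change of -6.39 (adjusted p = 0.0206 in edgeR). The list summed to 14.6, 45.1 and 20.2 FPKM in the NC libraries, to between 1.92 and 2.26 in H8, and to between 5.29 and 22.7 in atherosclerosis. NC replicate 2, the NC library with the highest MYBPH, also had the highest adipocyte sum, at 3.10 times replicate 1 and 2.23 times replicate 3. Its sum of the 5 endothelial markers was also the highest in NC, at 129 FPKM against 49.1 and 63.9 FPKM in replicates 1 and 3. In atherosclerosis, the adipocyte sum was highest in replicate 1, which had the lowest MYBPH. In atherosclerosis/NC, 1 of 5 adipocyte markers rose (LEP) and 1 fell (LIPE), beside 9.95% and 1.52% of all tested genes. LIPE was not called without atherosclerosis replicate 3. The part of adipocytes and endothelial cells in the MYBPH level was not tested.

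**Figure D5:**
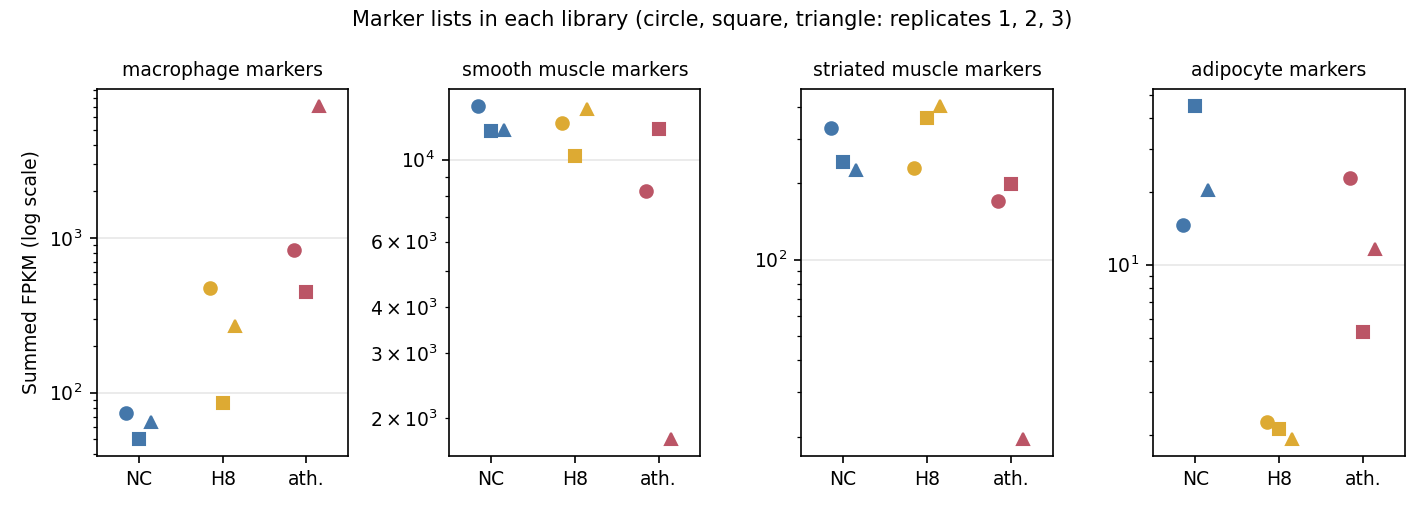
Summed FPKM of 4 marker lists in each library, on log axes, with replicates 1 to 3 as circle, square and triangle. Macrophage markers run from 50.1 to 73.4 FPKM in NC and from 444 to 7139 in atherosclerosis, and adipocyte markers are lowest in H8 (1.92 to 2.26).

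Over all lists, 30 of 80 tested genes rose and 2 fell in atherosclerosis/NC, 20 of 70 rose and 6 fell in H8/NC, and 30 of 82 rose and 3 fell in atherosclerosis/H8. Among all genes tested, 1.52% fell in the first comparison, and 7.22% rose and 3.05% fell in the third. Without atherosclerosis replicate 3, 28 of 75 listed genes rose and 1 fell in the first, and 10 of 74 rose and 6 fell in the third. Among all genes, 946 of 14578 then rose and 186 fell in the first, and 547 of 14589 rose and 365 fell in the third. By the adjusted threshold of 0.05 CSF3R and ADIPOQ were the listed genes that passed in edgeR, both in H8/NC, where 0.014% of all genes rose and 0.014% fell by this threshold. Neither passed there with all 9 libraries in 1 fit, with the replicate block or without NC replicate 3, while DESeq2 called 24 listed genes in H8/NC. In atherosclerosis/H8 0.0135% of all genes rose by it. In atherosclerosis/NC, edgeR called 0 listed genes by the adjusted threshold, with 34 at an unadjusted p under 0.05, while DESeq2 called 25. Without atherosclerosis replicate 3, edgeR called 18 listed genes by the adjusted threshold, of which 15 were macrophage markers. In atherosclerosis/H8 edgeR called 0, with 33 at an unadjusted p under 0.05, and DESeq2 called 16.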

How the data were processed

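The authors mapped paired-end poly(A) reads to Sscrofa11.1 with HISAT 2.0 and computed FPKM with StringTie 1.3.0. The labels' processing notes also name Bowtie 0.12.2 and build mm8, which do not match the pig coordinates. The deposited table holds FPKM and an estimated count per gene and library. How the authors derived the counts, and the annotation release, are not given in the sources used here. Total counts were 44094263 to 75787978 per library, at which 3 counts are 0.0396 to 0.0680 CPM (counting error only). Replicates are different pigs. One phrase of the extraction protocol speaks of adipose tissue, while the tissue labels give the aorta.

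For each comparison, the counts of its 6 libraries (whole numbers) were scaled by TMM and fitted in edgeR 4.0.16 under R 4.3.3 (two-sided quasi-likelihood F-test, mean FPKM filter of 0.1, Benjamini-Hochberg adjustment over all tested genes). An exact permutation test of 3 against 3 cannot go below p = 0.1. Standard errors were derived from the fold change and the F statistic. DESeq2 1.42.0 and limma 3.58.1 were alternatives, with other scalings, filters, a replicate block and each replicate left out. On simulated counts for atherosclerosis/NC (14828 genes, dispersion trend), 192 of 200 genes changed by a log2 of 2 were called, with 3.12% of the unchanged genes. The changed genes were drawn from those at a mean of 1 FPKM or more. The simulation held no outlying library and no scatter of genes around the trend, so these shares do not carry over to the data. Transcript length was the ratio of count to FPKM, scaled on genes of 1 transcript with at least 1000 counts whose span equalled their transcript (within 2%). Symbols missing from the table were looked up by gene ID, and 12 list entries were not found. RefSeq spans are those of Sscrofa11.1.

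The members and the 12 gene lists were chosen with earlier results of these data known. Named genes are the pair, its neighbours within 250 kb, at most 4 genes per list with the highest mean FPKM and at most 3 more with the smallest p among those called in atherosclerosis/NC, and the 5 named genes most like each member. IL13RA2 and markers without counts in any library were named outside this rule, after their values were seen, as was ELANE. No sequence of the locus was used here.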

Additional observations from a re-analysis of the deposited data

Results flagged for a closer look

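MYBPH was picked out because all H8 libraries were below the NC mean and all atherosclerosis libraries were above it. The mean FPKM differed from NC by -0.154 in H8 (lower) and by 3.61 in atherosclerosis (higher). Both differences use the same NC libraries, and the difference between them was not tested. H8 overlaps the range of NC, and 1 library, NC replicate 2, holds the NC mean up.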

How the results depend on the processing

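The labels number replicates 1 to 3 in every group. Deviations from group means correlated between -0.05 and 0.08 for same-numbered libraries of different groups, so the numbers were not taken as pairs. With the replicate block, 31 listed genes rose and 1 fell in atherosclerosis/NC, 25 were called in H8/NC and 24 in atherosclerosis/H8. Among all genes, the block gave 1114 higher and 250 lower of 14828 for atherosclerosis/NC. It gave 639 and 311 of 14336 for H8/NC, and 800 and 475 of 14788 for atherosclerosis/H8. MYBPH was then at 3.39, -0.39 and 3.76 for atherosclerosis/NC, H8/NC and atherosclerosis/H8. The ratio differences cannot change with the block, as every group has the same number of libraries, so their sameness is no check.

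Of 161 alternative values, 152 stayed near the value reported. For fold changes and ratio differences, near means the same sign and a shift smaller than the SD between libraries. For counts of listed genes it is a bound on relative change only. Both bounds are wide. In atherosclerosis/NC, counts of 24 to 39 passed as near 32, and ratio differences of -0.82 and -0.20 as near -0.44. The ratio differences with the replicate block are among the 152 and could not differ. With limma on log2(FPKM + 1), MYBPH was at 1.83 for atherosclerosis/NC and 1.99 for atherosclerosis/H8, where 16 listed genes were called. With limma on log2(FPKM + 0.1) it was 3.51 for atherosclerosis/H8. These values are smaller because the added constant is large beside the FPKM of MYBPH in NC and H8. Leaving out 1 library at a time moved MYBPH from 2.96 to 3.86 for atherosclerosis/NC (3.86 without NC replicate 2), from -0.84 to 0.055 for H8/NC (0.055 without NC replicate 2) and from 3.67 to 3.94 for atherosclerosis/H8. CHI3L1 ran from 3.41 to 4.01, 0.76 to 1.35 and 2.30 to 2.85. Listed genes called ran from 29 to 39, 25 to 29 and 10 to 36. The last count was 10 without H8 replicate 2, 11 without H8 replicate 3 and 16 without atherosclerosis replicate 3, and the cause was not tested. The ratio difference ran from -0.82 to -0.20, -2.0 to -1.38 and 0.84 to 1.35. Scaling by library size only moved the median of all genes to -0.13 for H8/NC and 0.24 for atherosclerosis/H8, with MYBPH at -0.69 and 3.98. Over all genes, limma on log2(FPKM + 1) called 714 higher and 141 lower for atherosclerosis/NC (946 and 186 in edgeR without atherosclerosis replicate 3), 202 and 141 for H8/NC and 517 and 177 for atherosclerosis/H8. By adjusted p, DESeq2 called 879 and 75, 445 and 171, and 447 and 203 in the 3 comparisons. By the same threshold edgeR called 0 genes for atherosclerosis/NC (2055 at an unadjusted p under 0.05), and 290 and 16 without atherosclerosis replicate 3. For H8/NC, library size only gave 576 and 460 and limma on log2(FPKM + 0.1) gave 454 and 505. For atherosclerosis/H8, library size only gave 1447 and 290, and leaving out H8 replicate 2, H8 replicate 3 or atherosclerosis replicate 3 gave 556 and 248, 617 and 438, or 547 and 365. With a filter at a mean FPKM of 1, MYBPH was not tested for H8/NC.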
